A study of Mus musculus with 117 samples.

Results

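Chromatin of mouse hepatocytes was described here at regions held stably in state 10 or state 12 of a segmentation into 14 numbered chromatin states. The genome is cut into bins of 200 bp in this segmentation, and each bin carries 1 state number per strain. Bins were selected on the state numbers themselves: a bin was taken where at least 7 of 9 inbred strains had it in state 10, or at least 7 of 9 had it in state 12, and adjacent bins of the same state were merged. The 2 states were kept apart. On chromosomes 1 to 19 this gave 2890 state 10 regions of 6018 bins and 1464 state 12 regions of 3809 bins, out of 12313718 autosomal bins. State 10 regions covered 1203.6 kb, or 0.0489% of the autosomal bins, and state 12 regions covered 761.8 kb, or 0.0309%.

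There were 6 laboratory strains (C57BL/6J, DBA/2J, A/J, NZO/HlLtJ, NOD/ShiLtJ and 129S1/SvImJ) and 3 wild-derived strains (WSB/EiJ, PWK/PhJ and CAST/EiJ). The study asked how histone marks vary between these strains in hepatocytes, the metabolic cells that make up most of the liver. All animals were females of 12 weeks. Each strain had libraries of chromatin immunoprecipitation sequencing against H3K27me3, H3K27ac, H3K4me3 and H3K4me1, 4 histone marks, from 3 mice, and 1 library of input chromatin, 117 libraries in all. The mice of a strain were combined in 1 segmentation, so every strain gave 1 value and the spread between mice was not measured. Bulk chromatin cannot tell a state shared by all cells from marks carried by different cells. Sequencing depth was unknown, and related strains are not independent draws.

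As background, H3K4me3 marks gene starts, H3K4me1 marks enhancers and the edges of promoters, H3K27ac marks active elements, and H3K27me3 is laid down by the Polycomb complex PRC2 at silent genes. Promoters of developmental regulators are known in stem cells for carrying H3K4me3 and H3K27me3 together, often over CpG islands, which are stretches rich in the base pair step CG. The mark content of each numbered state is not given in the sources used here, so a state is named by its number only.

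The sequences just before the starts of 4 genes with the most stable bins are shown first, 2 genes per state, with the albumin gene as a hepatocyte gene that held neither state. Each is the 250 bases before the start, 5′ to 3′ on the gene's strand, from RefSeq on GRCm38.p6, with every CG step in capitals. In all 9 strains the bin over the start was in state 10 at Pax6 and Nkx6-2, in state 12 at Bcl11a and Msx3, and in state 3 at Alb.
Pax6 (chr2:105668646-105668895, + strand): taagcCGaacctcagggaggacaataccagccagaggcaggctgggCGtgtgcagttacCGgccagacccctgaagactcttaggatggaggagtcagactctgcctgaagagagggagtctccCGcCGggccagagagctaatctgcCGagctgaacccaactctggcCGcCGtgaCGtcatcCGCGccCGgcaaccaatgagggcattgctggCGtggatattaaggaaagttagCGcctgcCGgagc
Nkx6-2 (chr7:139582798-139583047, - strand): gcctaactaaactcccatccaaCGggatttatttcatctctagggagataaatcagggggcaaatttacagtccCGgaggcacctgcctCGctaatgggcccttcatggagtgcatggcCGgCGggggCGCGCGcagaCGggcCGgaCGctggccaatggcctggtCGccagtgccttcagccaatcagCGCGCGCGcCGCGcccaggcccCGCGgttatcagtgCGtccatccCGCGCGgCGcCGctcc
Bcl11a (chr11:24080445-24080694, + strand): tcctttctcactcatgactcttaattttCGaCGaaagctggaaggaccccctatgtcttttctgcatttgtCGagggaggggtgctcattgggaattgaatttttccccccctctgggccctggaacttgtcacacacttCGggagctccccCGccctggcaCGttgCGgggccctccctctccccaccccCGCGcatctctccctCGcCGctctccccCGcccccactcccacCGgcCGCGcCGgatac
Msx3 (chr7:140049089-140049338, - strand): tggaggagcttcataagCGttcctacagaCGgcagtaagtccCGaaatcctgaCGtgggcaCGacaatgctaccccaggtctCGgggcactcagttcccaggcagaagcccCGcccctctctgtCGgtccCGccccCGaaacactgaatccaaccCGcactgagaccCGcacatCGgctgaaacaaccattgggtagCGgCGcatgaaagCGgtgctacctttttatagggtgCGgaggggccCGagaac
Alb (chr5:90460620-90460869, + strand): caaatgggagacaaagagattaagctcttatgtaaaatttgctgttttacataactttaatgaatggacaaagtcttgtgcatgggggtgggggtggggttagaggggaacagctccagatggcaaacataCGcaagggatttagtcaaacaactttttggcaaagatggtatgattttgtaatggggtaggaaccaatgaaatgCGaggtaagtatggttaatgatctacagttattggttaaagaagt
The CG steps numbered 15 at Pax6, 26 at Nkx6-2, 16 at Bcl11a, 18 at Msx3 and 2 at Alb. The G and C share was 60.8% at Pax6, 65.2% at Nkx6-2, 62% at Bcl11a, 60% at Msx3 and 39.2% at Alb.

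The regions were short. The median state 10 region was 200 bp and the longest 3800 bp, with 1559 of 2890 regions (53.9%) a single bin and 226 of at least 5 bins. The median state 12 region was 400 bp and the longest 3600 bp, with 548 of 1464 (37.4%) a single bin and 200 of at least 5 bins. Of the state 10 member bins, 2550 were in the state in 7 strains, 1985 in 8 and 1483 in all 9 (24.6%), and of the state 12 member bins 1219, 1171 and 1419 (37.3%). Just outside the limit, 3139 bins were in state 10 in 6 strains and 1445 in state 12. These counts follow from the selection and are a description. Most bins that carried either state in some strain were not members: 61808 autosomal bins were in state 10 in at least 1 strain, of which 9.74% were members and 43.1% were in the state in 1 strain alone. For state 12 the bins numbered 25716, with 14.8% members and 36.3% in 1 strain alone.

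The 5 longest regions of each state are described with the genes nearest to them. A state 10 region of 3800 bp covered the start of Pax6 (chr2:105666801-105670600), a transcription factor of the eye, brain and pancreatic islets, with 14 of its 19 bins in state 10 in all 9 strains. A state 12 region of 2800 bp lay in the same gene, 4600 bp from the nearest start (chr2:105673401-105676200), with 11 of 14 bins in state 12 in all 9 strains. The run of state 10 over the Pax6 start was 2000 bp in PWK/PhJ and 3800 to 4200 bp in the other 8 strains. State 10 also covered 3200 bp at 6600 bp from Sp9 (chr2:73278401-73281600), a zinc finger factor of the limb bud and forebrain, 3200 bp over Nkx6-2 (chr7:139580801-139584000) and 3000 bp over Gfi1 (chr5:107721601-107724600), a repressor of blood cell development. The remaining state 10 region among the 5 longest, of 3800 bp, lay in Prdm6 on a chromosome for which no gene starts were used. The longest state 12 regions covered Pcdh7 (chr5:57715201-57718800), a protocadherin, for 3600 bp and Fgf9 (chr14:58072801-58076000), a growth factor of lung and gonad development, for 3200 bp. The others among the 5 longest lay at Bcl11a (chr11:24079201-24082000) and Nr4a3 (chr4:48045801-48048600), each for 2800 bp. Lengths differed between strains: the run of state 12 at Bcl11a was 2400 to 3000 bp in 6 strains and 6200 to 7600 bp in CAST/EiJ, 129S1/SvImJ and NZO/HlLtJ.

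Levels at gene starts are given as the length in the state, in bp, within the 11 bins (2200 bp) centred on the start. The 8 genes with the most stable state 10 bins were Pax6, Nkx6-2, Lhx9, Foxd1, Gbx2, Emx2, Pou3f3 and Dmrta2. All 8 encode transcription factors of embryonic patterning. Pax6 had 2000 bp of state 10 in PWK/PhJ and 2200 bp in each of the other 8 strains. Nkx6-2, a homeodomain factor of the ventral neural tube, had 1800 bp in the lowest strain, a median of 2200 bp and 2200 bp in the highest. Lhx9, a LIM homeodomain factor required for gonad formation, ranged from 2000 to 2200 bp. These 3 windows were filled almost end to end in every strain. Foxd1, a forkhead factor of the kidney stroma, had 1600, 2000 and 2200 bp as lowest, median and highest. Gbx2, which positions the boundary of midbrain and hindbrain, had 1200, 1800 and 2200 bp. Emx2, a factor of the cortex and urogenital tract, had 1000, 2200 and 2200 bp. Pou3f3, a neural and kidney POU factor, had 1400, 2000 and 2000 bp, and Dmrta2, a DMRT factor of the cortex, had 1400, 1800 and 2200 bp. At Gbx2 NZO/HlLtJ had 1200 bp of state 10 and 600 bp of state 12, and PWK/PhJ 1200 bp and 800 bp. These 2 strains were the lowest for state 10 at Gbx2.

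The 8 genes with the most stable state 12 bins were Bcl11a, Msx3, Cxcr4, Tmem178b, Frzb, Sox6, Dmrt2 and Gata3. They were more mixed in function, with a chemokine receptor and a secreted Wnt antagonist beside transcription factors. Bcl11a, a repressor of fetal globin genes and a B cell factor, had 2000 bp of state 12 in A/J and 2200 bp in the other 8 strains. Msx3, a homeodomain factor of the dorsal neural tube, had 2000, 2200 and 2200 bp as lowest, median and highest. Cxcr4, the receptor of the chemokine CXCL12, had 1800, 2000 and 2200 bp. Those windows were close to full in all strains. Tmem178b, a transmembrane protein gene, had 800 bp in NOD/ShiLtJ, where 1400 bp were in state 10, and 1800 to 2200 bp in the others. Frzb, the secreted Wnt antagonist, had no state 12 in PWK/PhJ and 1800 to 2200 bp in the other 8 strains. In PWK/PhJ the Frzb window held 1600 bp of state 1 and 600 bp of state 5. This was the only full loss of the state among these 16 genes. Sox6, a factor of cartilage and red cell development, had 1600, 2200 and 2200 bp and no state 10 in any strain. Gata3, a factor of T cell and kidney development, had 1200, 2000 and 2200 bp and no state 10 either. Dmrt2, a factor of somite patterning, had 1200, 1800 and 2000 bp of state 12, with 200 to 600 bp of state 10 in 7 strains.

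**Figure D1:**
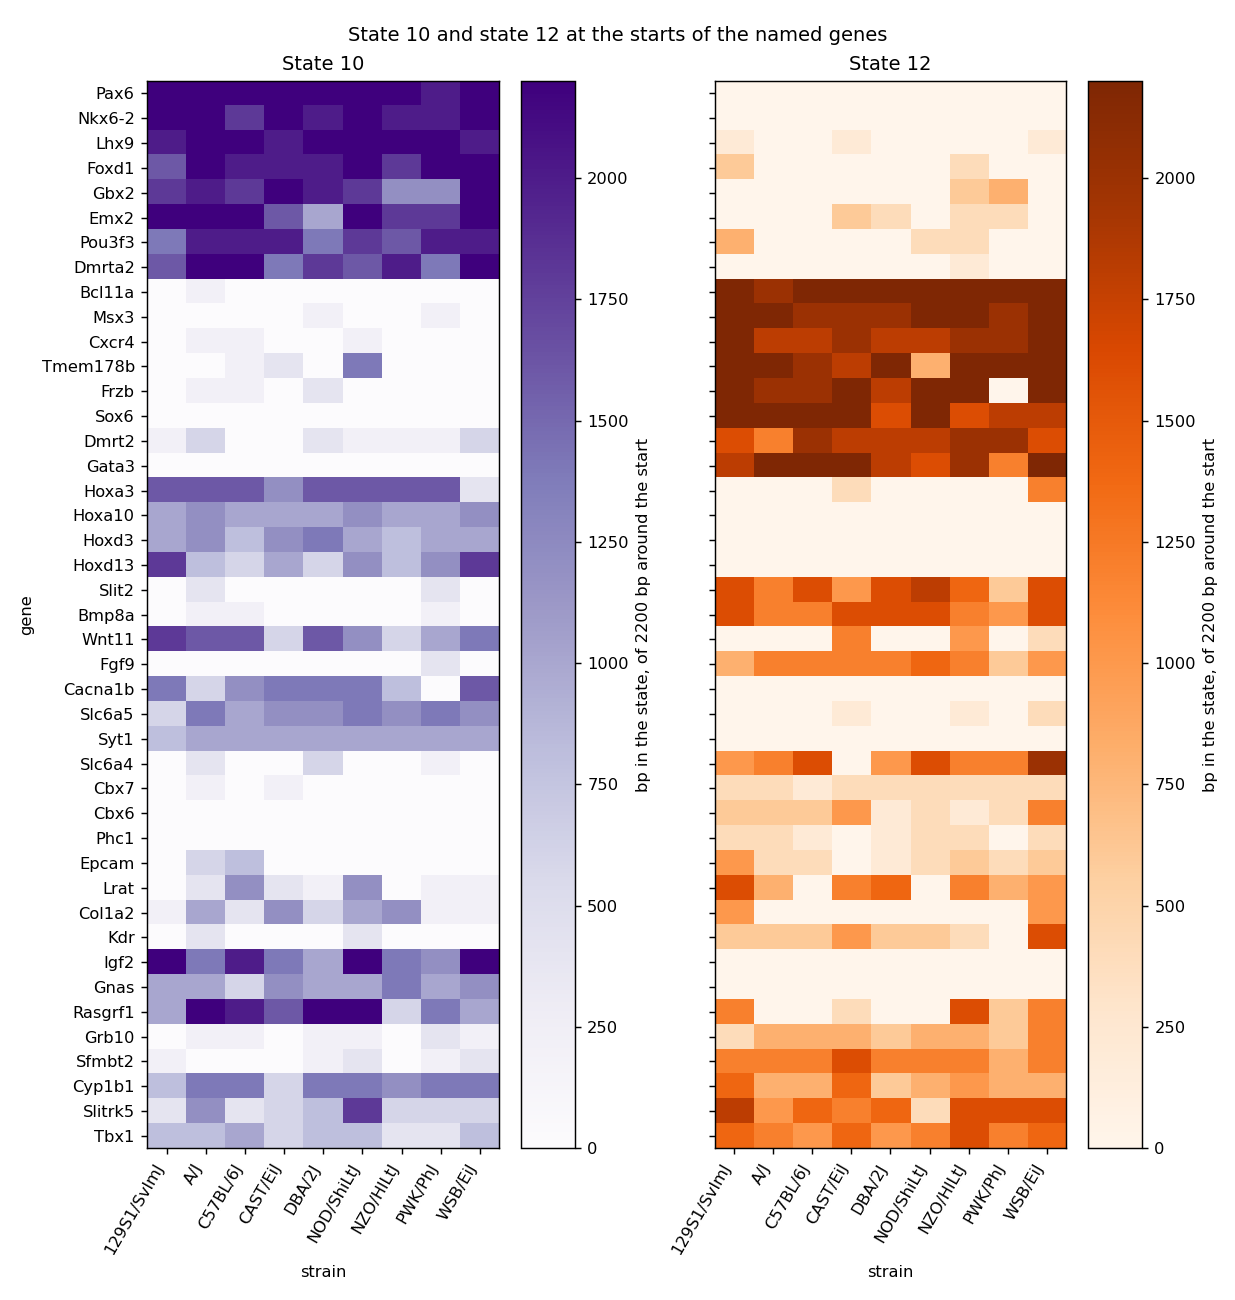
Length of state 10 (left, purple) and state 12 (right, orange) in bp within 2200 bp around the start of the 43 named genes (rows) in each of 9 strains (columns), 1 segmentation per strain. State 10 takes 1800 to 2200 bp of the windows of Pax6, Nkx6-2 and Lhx9 in every strain, and the white cell in the Frzb row is PWK/PhJ, with 0 bp of state 12.

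Starts could be placed for 16457 protein-coding genes on 18 autosomes. Of these, 478 (2.9%) had a stable state 10 bin within 1 kb of a start, 584 (3.55%) a stable state 12 bin, 979 (5.95%) at least 1 of both states and 83 both. Of the 979 genes, 67.3% also had a stable state 13 bin in the window and 4.19% a stable state 3 bin, against 15.6% and 46.4% of all 16457 genes.

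Cyp1b1, Slitrk5, Tbx1, Wnt11 and Sfmbt2 held the most of both states. Tbx1, a T-box factor of the pharyngeal arches, had 400, 800 and 1000 bp of state 10 and 1000, 1200 and 1600 bp of state 12 as lowest, median and highest over strains. Both states were present at Tbx1 in all 9 strains. Cyp1b1, a cytochrome P450 that metabolizes estrogens and hydrocarbons, had 600, 1400 and 1400 bp of state 10 and 600, 800 and 1400 bp of state 12. Slitrk5, a neuronal transmembrane protein, had 400, 600 and 1800 bp of state 10 and 400, 1400 and 1800 bp of state 12. At Slitrk5 NOD/ShiLtJ was the highest for state 10 and the lowest for state 12. Wnt11 and Sfmbt2 hold the states at different starts: the start with most stable bins had 600 to 1800 bp of state 10 at Wnt11, and 800 to 1600 bp of state 12 at Sfmbt2, a Polycomb-related gene.

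Gene lists written from general knowledge, with earlier results of these data known, were read against these shares. Of 81 developmental transcription factors with a start, 41 had stable state 10, 22 stable state 12 and 51 either, against 5.95% of all genes. Of 22 Hox genes, which set position along the body axis, 11 had state 10, 2 state 12 and 12 either, and 21 had a stable state 13 bin. Neighbouring Hox genes lie close together and can share regions. Of 51 developmental signalling genes, 14 had state 10, 11 state 12 and 24 either. Of 38 neuronal channel and synapse genes, 10 had state 10, 4 state 12 and 14 either. Each of these lists thus had more members with state 10 than with state 12, while all genes had fewer. When both ends of each gene were used on all 19 autosomes, the counts for either state were 73 of 113 transcription factors, 21 of 39 Hox genes, 33 of 72 signalling genes and 14 of 62 neuronal genes, against 6.00% of 20665 genes.

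Within the Hox list, Hoxa3, Hoxa10, Hoxd3 and Hoxd13 had the most bins. Hoxa3 had 400 bp of state 10 in WSB/EiJ, where 1200 bp were in state 12, and 1200 to 1600 bp in the other strains. Hoxa10 ranged from 1000 to 1200 bp and Hoxd3 from 800 to 1400 bp of state 10, with no state 12 in any strain. Hoxd13, which patterns digits, ranged from 600 bp in C57BL/6J and DBA/2J to 1800 bp in 129S1/SvImJ and WSB/EiJ. Among signalling genes, Slit2, an axon guidance ligand, had 600, 1600 and 1800 bp of state 12 as lowest, median and highest, and Bmp8a, a ligand of the BMP family, had 1000, 1600 and 1600 bp. Fgf9 had 600, 1200 and 1400 bp of state 12. Among neuronal genes, Syt1, the calcium sensor of synaptic vesicle release, had 800 bp of state 10 in 129S1/SvImJ and 1000 bp in every other strain. Slc6a5, a glycine transporter, had 600, 1200 and 1400 bp of state 10. Cacna1b, an N-type calcium channel subunit, had none in PWK/PhJ, where states 13 and 14 filled 1200 and 800 bp, and 600 to 1600 bp in the others. Slc6a4, the serotonin transporter, had no state 12 in CAST/EiJ, where 1800 bp were in state 8 and 400 bp in state 9, and 1000 to 2000 bp in the others. The full losses at Cacna1b and Slc6a4 were each in a single strain, and the states that stood there instead differed between these genes. The genes were chosen for bins in the state in at least 7 of 9 strains. The choice itself therefore kept full losses to few strains, and their rarity is no result.

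Genes of hepatocytes and other liver cells were read in the same way. This is no check of the labelled cell type, because the marks of each state are not known here. Of 25 hepatocyte genes with a start, including Alb, Apoa1 and Fgb, 21 had stable state 3, against 46.4% of all genes. None had stable state 10 or 12, against 5.95% of all genes with either. Of 16 hepatocyte transcription factors such as Hnf4a, Foxa2 and Cebpa, 15 had state 3 and none either of the states described here. The 17 ubiquitously expressed genes, 15 of them with state 3, the 18 germline genes and the 8 Kupffer cell and leukocyte genes also had neither. At a share of 5.95% lists of these sizes would hold few such genes, so a count of none cannot show absence from a class. Other liver cells were represented by few genes: 1 of 6 bile duct genes, 2 of 8 stellate and fibroblast genes and 1 of 5 endothelial genes had either state. Stable state 3 was found at 1 bile duct gene, 1 stellate and fibroblast gene, 1 Kupffer cell and leukocyte gene and no endothelial gene. Epcam, a bile duct adhesion protein, had 0, 400 and 1000 bp of state 12 as lowest, median and highest. Lrat, which esterifies retinol in stellate cells, had 0, 1000 and 1600 bp of state 12. Col1a2, a collagen chain of fibroblasts, had 200, 600 and 1200 bp of state 10. Kdr, a VEGF receptor of endothelium, had 0, 600 and 1600 bp of state 12. The part of other liver cells in these states was not tested.

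Of 24 Polycomb subunit genes 21 had state 3, against 46.4% of all genes, and none had state 10. State 12 was stable at 3 (12.5%), against 3.55% of all genes. These 3 were Cbx7, Cbx6 and Phc1, all subunits of PRC1, with 2, 1 and 1 stable state 12 bins. By both ends of each gene on all 19 autosomes, 2 of 30 (6.67%) had either state, near the 6.00% of all genes. Cbx7 had 200 bp of state 12 in C57BL/6J and 400 bp in the other strains, Cbx6 had 200 to 1200 bp and Phc1 0 to 400 bp. Of 20 imprinted genes, which are expressed from 1 parental allele, 3 had state 10 and 2 state 12, together 25% against 5.95% of all genes. Igf2, a fetal growth factor silent in adult liver, had 1000, 1400 and 2200 bp of state 10 and no state 12 in any strain. Gnas, a G protein subunit gene with several promoters, had 600, 1000 and 1400 bp of state 10 and no state 12. Rasgrf1, an exchange factor for Ras, had 600, 1600 and 2200 bp of state 10, with 1600 bp of state 12 in NZO/HlLtJ, the strain lowest for state 10. Grb10, an adaptor that limits insulin signalling, had 400, 800 and 1200 bp of state 12.

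The 2 sets of regions were placed differently against genes. Of 2791 state 10 regions on the 18 autosomes with starts, 548 (19.6%, 95% exact interval 18.2 to 21.2) lay within 1 kb of a protein-coding start, and of 1409 state 12 regions 680 (48.3%, 45.6 to 50.9). The windows take 1.62% of all bins, 69.6% of stable state 3 regions lay in them and 6.40% of stable state 13 regions. The median distance to the nearest start was 22200 bp for state 10 and 1200 bp for state 12. More than 10 kb from any start were 59.4% of state 10 regions and 36.2% of state 12 regions. Away from starts, 968 state 10 regions lay in bodies of protein-coding genes and 1275 (45.7%) outside them, against 405 and 324 (23.0%) for state 12. Genes of other kinds were not counted here. The intervals treat regions as independent, which neighbouring regions are not, and starts not in the table make the distances too long.

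Around the start itself, stable state 10 was most frequent from 200 bp upstream to 200 bp downstream, at 0.762% to 0.777% of starts. Stable state 12 had 2 slight maxima, 1.09% of starts at 200 bp upstream and 1.11% at 600 bp downstream, with 0.971% to 1.00% between them. State 3, for comparison, had its maximum over the start bin, at 37.1%.

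**Figure D2:**
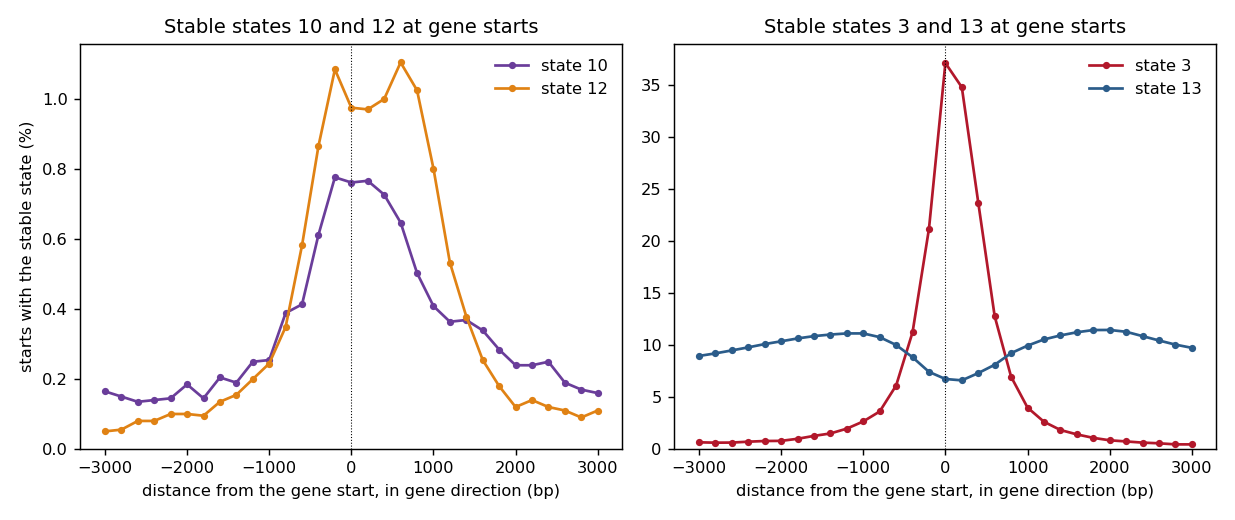
Share of 20085 protein-coding starts (y axis, %) whose bin at each distance (x axis, bp, negative upstream) was stably in the state. Left, states 10 and 12; right, states 3 and 13 on their own scale. State 10 is highest from 200 bp upstream to 200 bp downstream, at 0.762% to 0.777%. State 12 has slight maxima of 1.09% and 1.11% on both sides of the start, with 0.971% to 1.00% between them.

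The promoter sequences shown above were set beside all starts whose bin was stable in 1 state. The median number of CG steps in 300 bases, 250 before to 50 after the start, was 17 at the 153 starts in state 10 and 19 at the 196 in state 12. It was 24 at the 7446 starts in state 3, 7 at the 1347 in state 13, 2 at the 4161 in state 14 and 14 over all 20085 starts. At least 10 CG steps were found at 79.7% of state 10 starts and 87.2% of state 12 starts, against 93.9% for state 3, 41.1% for state 13 and 5.50% for state 14. Starts in states 10 and 12 thus lay between those of state 3 and those of state 13 in CG content. The ratio of observed CG steps to the number its C and G content gives had a median of 0.681 for state 10, 0.703 for state 12, 0.839 for state 3 and 0.374 for state 13. The letters TATAAA, on either strand, were found at 8.50% of state 10 starts, 13.3% of state 12 starts and 12.7% of all starts. The letters GGGCGG, which contain a CG step, were found at 56.9%, 64.3% and 47.0%, and CCAAT at 39.9%, 40.8% and 38.1%. The E-box letters CACGTG were found at 6.54%, 6.12% and 7.89%. A match describes the letters in this window and shows no binding.

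**Figure D3:**
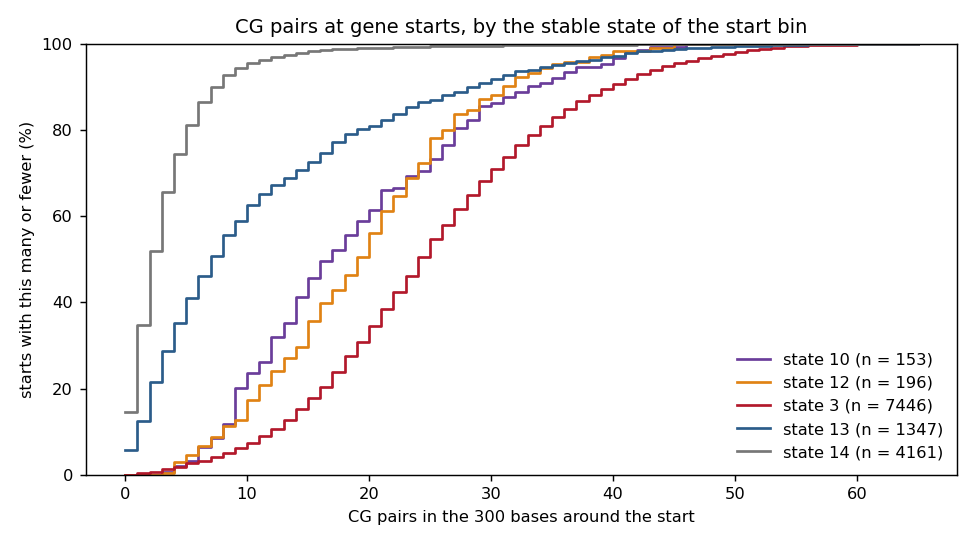
Cumulative share of protein-coding starts (y axis, %) with up to a given number of CG steps in the 300 bases around the start (x axis), by the stable state of the bin over the start. The curves for states 10 and 12 lie between state 3 (median 24) and state 13 (median 7), with medians of 17 and 19.

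The chromatin beside the regions also differed between the states. The bins within 1 kb to each side, members of the same state left out, were read in every strain. State 13 filled 69.9% ± 3.72 (SD, n = 9 strains) of the flanks of state 10 regions and 34.0% ± 4.44 of those of state 12 regions. The lowest strain was at 62.9% around state 10 and the highest at 39.0% around state 12, so the values did not overlap. The difference of 35.8 ± 3.94 percentage points was positive in 9 of 9 strains (sign-flip permutation test, exact and two-sided, p = 0.0039, adjusted over 14 states 0.0050). That p is the smallest which 9 strains can give. State 11 filled 0.502% ± 0.244 of the flanks of state 10 and 12.3% ± 3.38 of those of state 12, a difference of -11.8 ± 3.21 points. States 8, 5 and 1 were at 4.78%, 4.14% and 2.96% around state 12 and at 0.513%, 0.486% and 0.152% around state 10. For each of these 4 states the flank share was higher around state 12 in 9 of 9 strains, with an adjusted p of 0.0050 in the same permutation test. State 3 was at 1.05% around state 12 and 0.0063% around state 10. Over all autosomal bins the mean shares were 11.1% for state 13, 0.0457% for state 11 and 0.686% for state 8. They were 0.0258% for state 5, 2.51% for state 1 and 0.410% for state 3. State 1 was thus near this share around state 12 and below it around state 10. State 12 filled 5.29% of the flanks of state 10 regions, and state 10 filled 13.3% of those of state 12. These include bins that are members of the other state.

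The step from region to flank differed too. In the bin next to a state 10 region, 50.2% ± 6.31 were in state 13 and 34.8% ± 6.48 still in state 10. At 1000 bp 73.5% ± 3.46 were in state 13. In the bin next to a state 12 region, 8.37% ± 3.18 were in state 13, 38.1% ± 8.68 in state 12, 19.8% ± 7.76 in state 10 and 14.1% ± 2.85 in state 11. State 13 was at 46.4% ± 3.91 and 55.6% ± 4.57 of bins at 1000 and 2000 bp from state 12 regions. State 13 was therefore already the most frequent state in the bin next to state 10 regions, and its share rose up to 1000 bp. State 12 regions had a more mixed border before state 13.

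**Figure D4:**
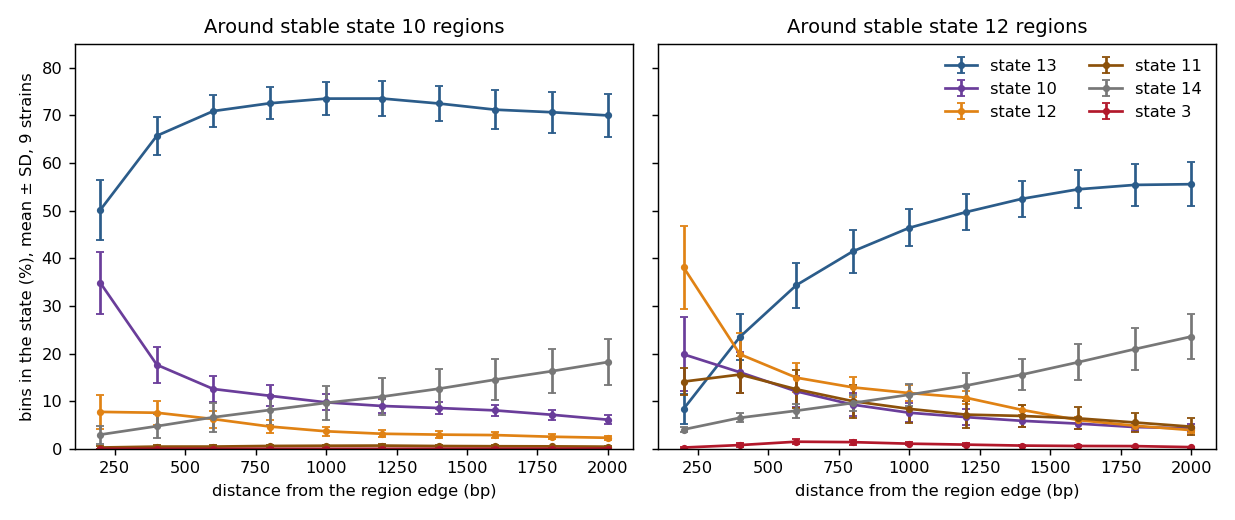
Share of bins in 6 states (y axis, %, mean ± SD over 9 strains) at 200 to 2000 bp from the edge of stable state 10 regions (left) and state 12 regions (right). State 13 is at 50.2% in the bin next to state 10 regions and at 8.37% next to state 12 regions.

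State 13 was the most frequent flank of both sets at starts and far from them. State 13 filled 65.0% ± 4.59 of the flanks of the 548 state 10 regions at starts and 71.8% ± 4.15 of those of the 1658 regions beyond 10 kb. Around state 12 it filled 33.0% ± 4.92 at the 680 regions at starts and 35.4% ± 4.00 at the 510 beyond 10 kb. State 11 filled 15.4% ± 3.99 around state 12 at starts and 8.26% ± 2.60 beyond 10 kb. Starts of long noncoding RNA genes were within 1 kb of 8.94% of the state 10 regions at protein-coding starts and 6.94% of those beyond 10 kb, and of 14.9% and 9.02% of the state 12 regions. The share of all autosomal bins near such starts is not given here, so no enrichment can be read from these values.

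The states met at a minority of regions. Stable state 10 bins were 0.0489% and stable state 12 bins 0.0309% of all autosomal bins. No background for a neighbour within 1 kb is given here, so the shares of regions are a description. Of the 2791 state 10 regions, 294 (10.5%) had a stable state 12 region within 1 kb, and 113 touched one. Of the 1409 state 12 regions, 259 (18.4%) had a stable state 10 region within 1 kb, 106 touched one and 46 had one on both sides. State 10 regions with such a neighbour lay at a start in 26.2% of cases and those without in 18.9%. For state 12 the order was the reverse, 38.6% with and 50.4% without.

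Stability was then measured in strains that took no part in the choice. For each strain, bins were taken that were in the state in at least 7 of the other 8 strains, and the strain left out was read. It had state 10 at 80.9% ± 7.81 of such bins (SD, n = 9 strains), with 67.9% in PWK/PhJ, a median of 84.6% and 88.4% in 129S1/SvImJ. It had state 12 at 86.1% ± 4.44, with 79.8% in PWK/PhJ, a median of 87.2% and 92.5% in 129S1/SvImJ. PWK/PhJ was the lowest and 129S1/SvImJ the highest for both states. The difference of -5.18 ± 6.35 percentage points did not pass the test (exact sign-flip permutation test, p = 0.0586, adjusted over 7 comparisons 0.0820), and state 10 was higher in 2 of 9 strains, A/J and NOD/ShiLtJ.

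Against other states measured the same way, both states were kept less often than state 3, at 95.9% ± 1.93. State 10 minus state 3 was -15.02 ± 8.19 points and state 12 minus state 3 was -9.85 ± 4.40 points, each negative in 9 of 9 strains (exact permutation, adjusted p = 0.0091). State 13 was kept at 88.6% ± 8.11, and state 10 minus state 13 was -7.70 ± 4.32 points, negative in 9 of 9 strains (exact permutation, adjusted p = 0.0091). State 12 minus state 13 was -2.53 ± 6.74 points (exact permutation, adjusted p = 0.277). State 11 was kept at 75.6% ± 14.5. State 12 was above state 11 by 10.5 ± 12.2 points in 8 of 9 strains (exact permutation, adjusted p = 0.0273), and state 10 minus state 11 was 5.30 ± 12.4 points (exact permutation, adjusted p = 0.277). With a match within 1 bin counted as kept, the means were 89.3% ± 5.88 for state 10 and 92.4% ± 3.07 for state 12. They were 98.6% ± 0.718 for state 3, 84.4% ± 12.9 for state 11 and 90.9% ± 7.31 for state 13. In PWK/PhJ state 10 was then above state 13, 78.9% against 73.7%, and in every other strain it stayed below. The differences from states 3, 11 and 13 were not tested in this setting.

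The wild-derived strains CAST/EiJ, PWK/PhJ and WSB/EiJ kept state 10 at 76.0% ± 9.16 (SD, n = 3) and the 6 laboratory strains at 83.4% ± 6.48, with overlapping values (exact permutation test of 84 splits, p = 0.214, adjusted 0.429). For state 12 the means were 85.7% ± 5.35 and 86.3% ± 4.47 (exact permutation, p = 0.881, adjusted 0.881). Strains also differed in how many autosomal bins they had in each state, between 13698 (PWK/PhJ) and 26476 (WSB/EiJ) for state 10 and between 6422 (DBA/2J) and 11360 (WSB/EiJ) for state 12. DBA/2J, with 14451 bins in state 10, kept it at 72.3%, CAST/EiJ, with 18948, at 3148 of 4254 bins, C57BL/6J, with 18025, at 84.6%, and 129S1/SvImJ, with 19796, at 88.4%. WSB/EiJ, with the most, kept it at 85.9%. The part of these totals in the shares was not tested.

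Where a strain lacked the state, the state that stood there depended on which was missing. Of the bins lost from state 10, 51.6% ± 22.2 were in state 13, 26.8% ± 19.1 in state 12, 12.8% ± 3.62 in state 6 and 2.71% ± 2.00 in state 14. Of the bins lost from state 12, 37.7% ± 26.5 were in state 10, 22.8% ± 17.0 in state 8, 20.9% ± 17.8 in state 5, 10.2% ± 3.58 in state 11 and 2.17% ± 2.10 in state 13. Among bins lost from state 10, state 13 exceeded state 14 by 48.9 ± 21.9 points in 9 of 9 strains (exact permutation, p = 0.0039, adjusted over both states 0.0078). Among bins lost from state 12 both were rare, and state 13 exceeded state 14 by 1.57 ± 1.80 points in 8 of 9 strains (exact permutation, adjusted p = 0.0156). With all 8 other strains required this call was lost, at 1.25 points (exact permutation, p = 0.125).

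**Figure D5:**
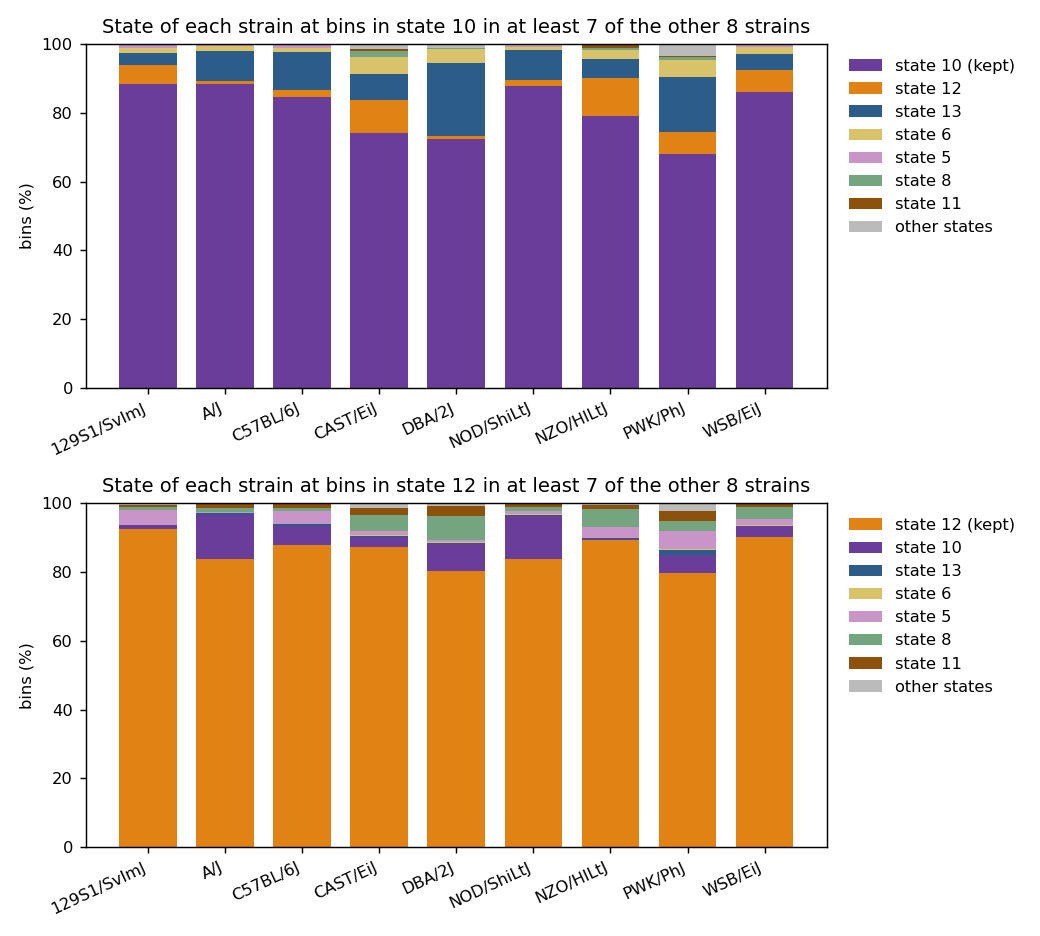
State found in each strain (bars) at the bins that were in state 10 (top) or state 12 (bottom) in at least 7 of the other 8 strains, as stacked shares of those bins (%). The kept share lies between 67.9% and 88.4% for state 10 and between 79.8% and 92.5% for state 12, with PWK/PhJ lowest in both, and the parts above it show which states replace it.

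Strains differed widely in these shares. State 13 took 75.9% of the bins lost from state 10 in DBA/2J, 74.7% in A/J and 72.6% in both C57BL/6J and NOD/ShiLtJ, but 26.2% in NZO/HlLtJ and 28.7% in CAST/EiJ. State 12 took 53.1% of the lost state 10 bins in NZO/HlLtJ, 46.8% in 129S1/SvImJ, 46.2% in WSB/EiJ and 37.3% in CAST/EiJ, but 3.74% in DBA/2J and 7.40% in A/J. In the other direction, state 10 took 79.5% of the lost state 12 bins in A/J and 77.6% in NOD/ShiLtJ, but 2.72% in NZO/HlLtJ and 14.1% in 129S1/SvImJ. State 8 took 51.0% of the lost state 12 bins in NZO/HlLtJ, and state 5 took 56.8% in 129S1/SvImJ. NZO/HlLtJ was thus the highest strain for changes from state 10 to state 12 and the lowest for the other direction.

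Bins that belonged to neither set were also read. In 14101 autosomal bins, state 10 and state 12 counted together were present in at least 7 strains, and 4274 of these (30.3%) reached 7 strains for neither state alone. Of these 4274 bins, A/J had 75.01% in state 10, NOD/ShiLtJ 70.1%, C57BL/6J 62.1% and DBA/2J 58.6%. NZO/HlLtJ had 71.4% in state 12, 129S1/SvImJ 63.0%, CAST/EiJ 58.1% and WSB/EiJ 55.3%. PWK/PhJ had 43.2% in state 12 and 33.8% in state 10. By this choice every such bin held both states among the strains, so a division of strains at each bin was built in. No wild-derived strain was among the 4 with more state 10. Over all autosomes state 12 took 11360 bins in WSB/EiJ, 10986 in 129S1/SvImJ, 10874 in CAST/EiJ and 10705 in NZO/HlLtJ. It took 9113 in NOD/ShiLtJ, 8437 in PWK/PhJ, 7811 in A/J, 7778 in C57BL/6J and 6422 in DBA/2J. The part of these totals in the division was not tested. Whether library quality or depth moved with this division was not tested, since the files hold no reads.

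The regions were also set beside microRNA genes, whose hairpins are cut into short RNAs that repress messenger RNAs through a seed of bases 2 to 8. Of 919 hairpins, 13 (1.41%) had a stable state 10 bin within 1 kb and 8 (0.871%) a stable state 12 bin. The 3 hairpins that give miR-9, a microRNA of the nervous system, were all among the 13, at Mir9-1 on chromosome 3, Mir9-3 on chromosome 7 and Mir9-2 on chromosome 13. Shown with the seed in capitals, from RefSeq, are miR-9-5p, the arms of Mir132 and Mir212 that share a seed, and 1 arm of each other hairpin with at least 4 stable bins, apart from Gm51268 on the opposite strand of Mir9-2.
miR-9-5p (Mir9-1, Mir9-2, Mir9-3): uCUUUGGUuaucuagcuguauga
miR-10b-5p (Mir10b): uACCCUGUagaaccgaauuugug
miR-449c-5p (Mir449c): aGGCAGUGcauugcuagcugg
miR-9718 (Gm51264): uUGCUGACcugggugguggu
miR-1895 (Mir1895): cCCCCGAGgaggacgaggagga
miR-132-3p (Mir132): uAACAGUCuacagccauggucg
miR-212-3p (Mir212): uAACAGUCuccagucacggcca
Mir9-2 (chr13:83738814-83738885) had 7 stable state 10 bins within 1 kb and 1200, 1600 and 2000 bp of state 10 as lowest, median and highest over strains. Mir9-1 had 400, 1000 and 1800 bp and Mir9-3 had 200, 600 and 800 bp of state 10, so no strain lacked it at any of the 3. Mir10b (chr2:74726070-74726137), which lies in the Hoxd cluster, had 10 stable state 10 bins and 1400, 1800 and 2200 bp. Mir449c (chr13:113035983-113036091), known from ciliated epithelium, had 4 bins and 800, 1200 and 1600 bp. Near state 12, Gm51264 on chromosome 12 had 5 stable bins and 1000, 1400 and 2200 bp of the state, and Mir1895 on chromosome 3 had 4 bins and 600, 1000 and 1400 bp. Mir132 and Mir212, whose 3p arms share the seed AACAGUC, lie next to each other on chromosome 11 and had 1 stable state 12 bin each within 1 kb, with 0, 400 and 800 bp over strains. Gm25641 and Gm51268 lie on the opposite strand of Mir9-1 and Mir9-2 and were counted on their own, so 13 hairpins are fewer places.

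Outside the autosomes, chromosome X had 2106 regions stable in state 10 and 548 in state 12 by the same limit. This was 43.4 bins per Mb for state 10 against 2.44 on the autosomes, and 8.34 against 1.55 for state 12. The autosomes ranged from 57.02 state 10 regions per 100 Mb on chromosome 16 to 179 on chromosome 19, and from 44.1 state 12 regions on chromosome 12 to 76.5 on chromosome 19.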

How the data were processed

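Chromatin immunoprecipitation libraries of 4 histone marks and input from 9 strains were grouped by the strain in their labels. The authors deposited 1 segmentation per strain, in which the state number of each interval is a category and no count, signal or score. A joined file held the same bytes as the strain files and was not used. Per the submitters' processing notes the build was mm10, with FastQC 0.11.5 and MACS 1.4.2 listed; the aligner and the tool that drew the states are not given in the sources used here. Replicate mice are not separate in the files, and p-values measure the spread between strains.

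Intervals were written as 200-bp bins and members were found as described above. The members, gene lists and tests were chosen with earlier results of these data known. Gene starts (20085, protein-coding) and sequences came from RefSeq tables of GRCm38.p6, which held starts for 16457 genes on 18 autosomes; 339 of 491 listed genes matched. Starts were used in place of both gene ends because the start table gives strand, and both ends were an alternative added after the data were seen. Named genes are, within 1 kb of a start, the 8 with the most stable bins of each state, up to 4 per list, the 5 with most of both states, and the 5 longest regions per state. Each difference was taken in 9 strains and its sign flipped in all 512 patterns (exact permutation, two-sided, smallest p 0.0039), with Benjamini-Hochberg adjustment within each family. Bins chosen for different held-out strains overlap. Alternatives covered the number of strains, region length, merging, chromosome X, windows, flanks, matching within 1 bin and each strain left out. The tools were scipy 1.17.1, pandas 2.3.3 and numpy 2.4.6 under Python 3.11.15, with matplotlib 3.10.9 for figures, and the code was tested on simulated data.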

Additional observations from a re-analysis of the deposited data

Results flagged for a closer look

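Among 10 sets of strain values, 1 had a strain whose gap to the nearest of the others was large against the whole range: state 13 took 7.19% of the bins lost from state 12 in PWK/PhJ, against 0.340% to 2.74% in the other 8 strains. The PWK/PhJ value rests on 43 of 598 lost bins. Chance flags about 1 in 20 sets, which is 0.5 of the 10 looked at.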

How the results depend on the processing

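With 6 of 9 strains required, the regions numbered 4111 for state 10 and 1922 for state 12. With all 9 required they numbered 898 and 640, with regions of at least 2 bins 1331 and 916, and with chromosome X added 4996 and 2012. The share of regions at starts was 13.5% (state 10) and 32.1% (state 12) with windows of 500 bp, 33.2% and 59.3% with 5 kb, 24.9% and 52.8% with genes of all kinds, and 24.9% and 54.0% with both gene ends, an alternative chosen after the data were seen. For state 10 it was 17.0% with all 9 strains required and 22.1% for regions of at least 2 bins. In each of these settings the share was higher for state 12. When 6 of the other 8 strains were required, the kept share was 74.5% for state 10 and 79.6% for state 12. With 8 required the kept shares were 87.4% and 91.7%. Requiring all 8 brought the difference in kept share between state 10 and state 12 to -4.26 points (exact permutation p = 0.0391, not adjusted), past the threshold. With 6 required the difference was -5.11 points (exact permutation p = 0.0977). With a match within 1 bin it was -3.11 points (exact permutation p = 0.0898), and neither passed. Leaving out each strain in turn, the difference ran from -6.37 to -4.18, and passed without A/J (-6.37, exact permutation p = 0.0234) or NOD/ShiLtJ (-6.32, exact permutation p = 0.0391). A/J and NOD/ShiLtJ were the strains in which state 10 was higher, so leaving out either made the difference larger by construction. State 13 minus state 14 among bins lost from state 12 was 1.25 points with all 8 required, no longer past the threshold (exact permutation p = 0.125). Among single strains left out the lowest and highest values were 1.06 and 1.86 for state 12, and 45.9 and 51.9 for state 10. Wild-derived minus laboratory strains lay between -12.4 and -3.44 for state 10 and between -2.81 and 2.39 for state 12, with the sign reversed without 129S1/SvImJ (0.663), NZO/HlLtJ (0.0566) or PWK/PhJ (2.39). The smallest exact permutation p among these was 0.0714, without DBA/2J or WSB/EiJ. The flank difference for state 13 ran from 26.7 points with 2 kb to 42.6 points with 400 bp, and from 35.0 to 36.8 with single strains left out, past the threshold each time. The cause of these changes was not tested. No paired analysis was possible because, for pairing by mouse number, each segmentation combines the mice of a strain and the files carry no replicate number; the sign-flip permutation tests pair the values of a strain.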
